A study of Mus musculus with 12 samples.

Results

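Cultured mouse keratinocytes that had been scratch wounded had higher relative levels of translating messenger RNA for a subset of cornified envelope genes than unwounded cells, among them 2 small proline-rich genes, Sprr1a and Sprr2d, that rose in both RNA fractions. The genes described are 10 cornified envelope and late differentiation genes, taken from the count table by symbol: Sprr1a, Sprr1b, Sprr2d, Ivl, Lor, Tgm1, Tgm3, Alox12b, Aloxe3 and Sbsn. They are 10 of 54532 genes listed, and all 10 were among the 13571 genes with enough counts to be tested.

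The cornified envelope is the crosslinked protein shell that replaces the plasma membrane of a keratinocyte at the end of its differentiation. Precursors such as involucrin, loricrin and the small proline-rich proteins are joined by transglutaminases, and lipoxygenases process the ceramides that become attached to the outer face of the shell. Involucrin and transglutaminase 1 act early in its assembly at the cell periphery beside the desmosomes, and small proline-rich proteins are known to be raised in injured or stressed epidermis.

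The 12 libraries fall into 4 groups of 3. All cells were mouse keratinocytes labelled as carrying the transgene DP-BirA(1-584) on a WT background, in which desmoplakin residues 1 to 584 are joined to the biotin ligase BirA. Desmoplakin links desmosomes, the junctions between neighbouring cells, to keratin filaments. Every group received 1.2 micromolar calcium by the labels, doxycycline at 2 µg/mL and biotin for 16 h, and the cultures were either scratch wounded or left unwounded. The calcium unit is printed as the labels give it and could not be checked, so the calcium state of the cultures is uncertain. The translating part of a sucrose gradient was passed over neutravidin, which holds biotinylated material. The bound RNA is called cortical and the RNA depleted of it is called total, so total means what neutravidin left behind and not the whole lysate. The labels do not say whether the cells are 1 clone, how long after wounding they were taken, or whether the 3 biological replicates of a group were separate cultures, so the p-values measure the spread between these libraries. The study set the cortical against the total translatome in unwounded and in wounded cells.

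Library totals ran from 8980013 to 23457548 counts. Wounded total replicate 1 stood apart: 13117 genes had a count in it, against 14393 to 16867 in the other libraries, and calls among the 10 genes that it changes are given with and without it. Because it enters the shared estimate of the spread, leaving it out also raised the share of all genes called in every comparison. The cells had the markers of basal keratinocytes, with Krt14 at 2345 to 6234 FPKM and Krt5 at 1645 to 3431 FPKM (fragments scaled by transcript length and library size, the deposited unit in which genes can be compared with each other). Of the suprabasal keratins, Krt10 stood at 7.51 to 15.6 FPKM and Krt1 at 0 to 0.415 FPKM. Other suprabasal and differentiation markers were abundant. In unwounded total libraries Ly6d averaged 5244 FPKM and Krtdap 3267 FPKM, where Krt14 averaged 2509 FPKM. The levels therefore do not mark the cells as basal only. Filaggrin and its relatives, Flg, Flg2, Hrnr and Rptn, had 0 counts in all 12 libraries, so these genes were not detected. The 8 keratinocyte markers summed to 10799.5 to 11888 CPM (counts scaled by library size) in unwounded total, 15151 to 15343 in unwounded cortical, 17387 to 19941 in wounded total and 20582 to 20909 in wounded cortical libraries. The markers of fibroblasts (5 genes), melanocytes (4), immune cells (4) and endothelial cells (3) summed to at most 6.47 CPM for any 1 of these types in any library, and Dcn, Tyrp1, Cd207, Lyz2 and Cdh5 had no count in any library.

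The 5 precursor genes lie together on chromosome 3 (mm10/GRCm38), in the epidermal differentiation complex, within 493 kb between positions 92080271 and 92573735. From the low to the high coordinate they are Lor (92080271 to 92083142, minus strand), Sprr2d (92339140 to 92340873, plus), Sprr1b (92436809 to 92438789, minus), Sprr1a (92483952 to 92485895, minus) and Ivl (92570902 to 92573735, minus). Each is a short gene of 2 exons. Aloxe3 (chromosome 11, 69125896 to 69149115, plus) and Alox12b (69156989 to 69169792, plus) are neighbours 7.87 kb apart. Tgm1 lies on chromosome 14 (55700009 to 55713926, minus), Tgm3 on chromosome 2 (130012349 to 130050399, plus) and Sbsn on chromosome 7 (30751471 to 30756134, plus).

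The promoters of the 5 precursor genes are printed because these genes of 1 region did not change alike on wounding and all 5 hold a match to the same short pattern. The motif searched was TGANTCA, a pattern for the core letters bound by AP-1 factors such as Fos and Jun. It allows any letter (N) in the middle and reads the same on both strands. Capitals mark each match in the 250 bases before the RefSeq start (GRCm38.p6), printed 5′ to 3′ on the gene's strand. For Sprr1a and Sprr1b the RefSeq start lies a few bases inside the deposited gene.
Lor, chr3:92083143-92083392, minus strand: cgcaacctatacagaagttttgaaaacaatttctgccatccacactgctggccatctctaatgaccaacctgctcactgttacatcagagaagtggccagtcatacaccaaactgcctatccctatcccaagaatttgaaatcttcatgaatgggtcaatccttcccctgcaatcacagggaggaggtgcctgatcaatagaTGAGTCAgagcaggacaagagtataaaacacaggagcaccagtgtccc
Sprr2d, chr3:92338890-92339139, plus strand: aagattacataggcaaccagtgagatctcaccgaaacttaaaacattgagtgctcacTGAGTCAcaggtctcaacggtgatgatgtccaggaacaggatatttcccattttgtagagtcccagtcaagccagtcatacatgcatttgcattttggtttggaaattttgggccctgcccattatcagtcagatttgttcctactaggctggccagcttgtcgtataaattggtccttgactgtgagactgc
Sprr1b, chr3:92438780-92439029, minus strand: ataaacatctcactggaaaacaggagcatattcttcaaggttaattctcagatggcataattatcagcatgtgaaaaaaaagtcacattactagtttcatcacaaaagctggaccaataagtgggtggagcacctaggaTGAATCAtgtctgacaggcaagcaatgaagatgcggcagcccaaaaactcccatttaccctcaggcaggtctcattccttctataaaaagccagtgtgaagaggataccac
Sprr1a, chr3:92485882-92486131, minus strand: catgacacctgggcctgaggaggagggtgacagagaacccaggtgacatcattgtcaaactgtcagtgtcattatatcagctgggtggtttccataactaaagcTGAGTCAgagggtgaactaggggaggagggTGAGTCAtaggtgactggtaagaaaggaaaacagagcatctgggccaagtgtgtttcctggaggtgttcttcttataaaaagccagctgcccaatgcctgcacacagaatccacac
Ivl, chr3:92573736-92573985, minus strand: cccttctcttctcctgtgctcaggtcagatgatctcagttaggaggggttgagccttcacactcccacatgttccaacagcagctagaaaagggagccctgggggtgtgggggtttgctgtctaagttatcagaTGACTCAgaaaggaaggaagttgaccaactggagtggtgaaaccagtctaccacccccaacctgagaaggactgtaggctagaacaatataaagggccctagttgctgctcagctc
RefSeq promoters were at hand for 9 of the 10 genes, all but Aloxe3. The AP-1 letters were found in 6 of these 9, the 5 precursor genes and Sbsn, against 6.75% of 32851 promoter windows of the same length in the mouse genome. Sprr1a holds 2 matches, beginning 146 and 116 bases before the start, and the single matches begin 111 bases before the start in Sprr1b, 193 in Sprr2d, 116 in Ivl, 48 in Lor and 119 in Sbsn. The TATA box letters TATAAA were in 6 of 9 promoters (12.4% of all windows), and the letters CACCC, the core of a KLF factor motif, in 7 of 9 (52.0% of all windows). The letters AACCNGTT of the grainyhead-like factors were in 0 of 9 (1.79% of all windows). These 3 were searched on both strands too. Each match is a description of the letters in the window. The middle letter of the AP-1 matches differed, with TGAGTCA in Sprr1a, Sprr2d and Lor, TGACTCA in Ivl, and TGAATCA in Sprr1b and Sbsn. Precursor genes that rose and those that did not pass the test both held matches. The part of the motif in the wounding results was not tested.

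**Figure D1:**
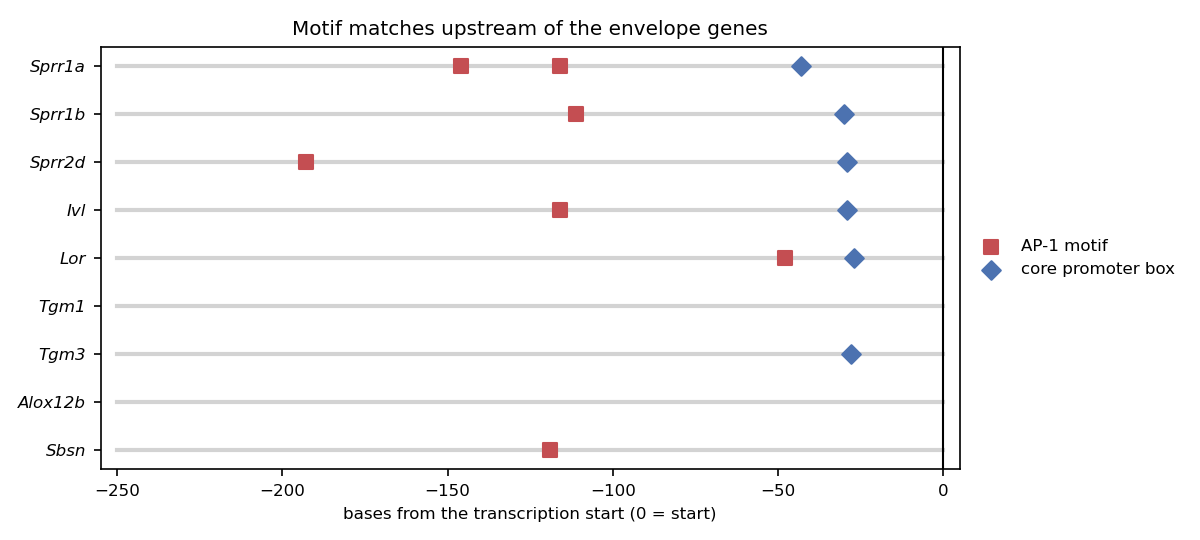
Matches to the AP-1 letters (squares) and to TATAAA (diamonds) in the 250 bases before the RefSeq start of 9 of the genes, 1 row per gene, with the distance from the start in bases on the horizontal axis. AP-1 letters appear in the rows of Sprr1a, Sprr1b, Sprr2d, Ivl, Lor and Sbsn, and TATAAA lies 27 to 43 bases before the start in 6 rows.

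Levels spanned nearly the whole range of the genes tested. On the deposited FPKM scale, which corrects for length, unwounded total libraries were led by Sbsn (suprabasin, a secreted protein of suprabasal keratinocytes) at 291 ± 13 FPKM and Sprr1b at 236 ± 20.8 FPKM (SD, n = 3 here and below). They ranked at percentiles 97.9 and 97.4 of the genes tested. Sprr1a followed at 7.68 ± 1.35, Ivl at 5.78 ± 1.02, Tgm1 at 4.51 ± 1.08, Sprr2d at 3.63 ± 0.723 and Lor at 3.21 ± 0.211 FPKM. In that run of 5 genes each gene's libraries overlapped with those of the next, so the order among neighbours is within their spread. Aloxe3 at 0.719 ± 0.181 and Alox12b at 0.641 ± 0.229 FPKM overlapped as well, and Tgm3 was lowest at 0.328 ± 0.124 FPKM, percentile 11.7. The 2 abundant genes did not overlap with the rest or with each other in any group.

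**Figure D2:**
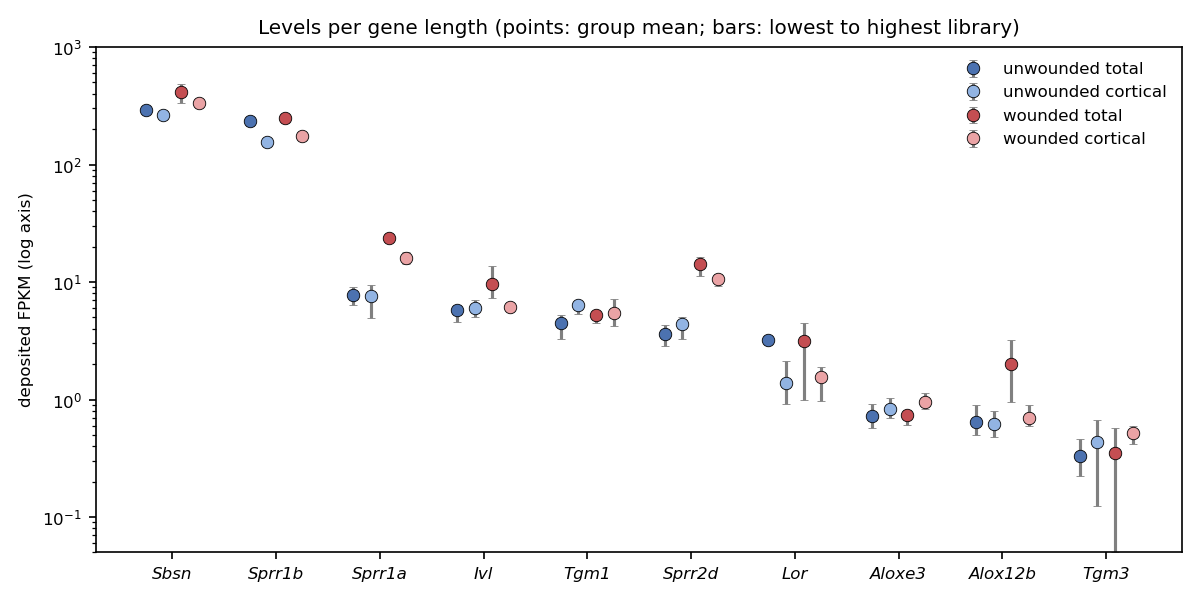
Deposited FPKM of the 10 genes in the 4 groups on a log axis, with points at the mean of 3 libraries and bars from the lowest to the highest library. Sbsn and Sprr1b stand far above the others in every group, Sprr2d moves from 3.63 FPKM in unwounded total to 14.2 FPKM in wounded total libraries, and the bar of Tgm3 in wounded total runs off the axis because 1 library was at 0.

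The order below these 2 genes differed in wounded cells. In wounded total libraries Sprr1a stood at 23.9 ± 1.86 FPKM and Sprr2d at 14.2 ± 2.57 FPKM, ahead of Ivl at 9.7 ± 3.47 and Tgm1 at 5.25 ± 0.676 FPKM, with the libraries of Sprr2d and Ivl overlapping. In wounded cortical libraries the same 4 genes stood at 15.9 ± 1.97, 10.7 ± 1.32, 6.12 ± 0.0787 and 5.4 ± 1.6 FPKM. Alox12b moved above Aloxe3 in the wounded total libraries, at 1.99 ± 1.13 against 0.732 ± 0.109 FPKM.

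Comparing wounded with unwounded total libraries, 5 of the 10 genes rose and 0 fell. Those that rose were the precursors Sprr1a, Sprr2d and Ivl, the lipoxygenase Alox12b and Sbsn. Of all genes tested, 15.6% passed in this comparison, 8.39% as higher and 7.2% as lower (24.9% without wounded total replicate 1). Scaled by library size alone, all genes split into 708 higher and 1104 lower, where TMM gave 1139 and 977. The median log2 difference of the 10 genes was 0.34, against -0.03 for all genes. Tests here and below are edgeR quasi-likelihood F tests, two-sided, with p-values adjusted by Benjamini-Hochberg over all genes tested and a threshold of 0.05. The libraries are bulk samples, in which fewer cells of a type and less RNA per cell cannot be told apart.

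Sprr1a encodes a small proline-rich precursor that cross-bridges other envelope proteins. Its level, in CPM scaled by TMM, was 7.41, 6.32 and 5.18 in the unwounded total libraries and 19.8, 17.5 and 20.2 in the wounded total libraries. The lowest wounded library was more than double the highest unwounded one. The difference was 3.03-fold (log2 1.6, SE 0.24, adjusted p = 0.000328 by edgeR), and Sprr1a passed the test under all 24 alternatives, with log2 values from 1.42 to 1.73.

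Sprr2d, a member of the neighbouring Sprr2 family, was the gene with the largest difference among the 10. Its unwounded total libraries stood at 1.97, 2.99 and 2.59 CPM and its wounded total libraries at 7.65, 11 and 10.2 CPM. All wounded libraries lay above all unwounded ones, with wounded total replicate 1 the lowest of the wounded. The difference was 3.83-fold (log2 1.94, SE 0.3, adjusted p = 0.000438 by edgeR). Of the 50-base windows of the Sprr2d transcript, 4.27% also occur in Sprr2i or Sprr2e, so a small share of its reads cannot be assigned with certainty. Sprr2e had at most 10 counts and Sprr2i at most 47 in a library, against 33 to 196 for Sprr2d.

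Sprr1b, the other Sprr1 gene, gave another picture. Its unwounded total libraries stood at 209, 212 and 178 CPM and its wounded total libraries at 191, 222 and 207 CPM. The groups overlapped, and the difference did not pass the test (log2 0.05, SE 0.1, adjusted p = 0.798 by edgeR). No 50-base window of the Sprr1a or Sprr1b transcript occurs in another gene. Because the 2 genes are counted in the same library, their ratio does not depend on scaling. There were 28.2 to 34.4 Sprr1b counts per Sprr1a count in the unwounded total libraries and 9.66 to 12.7 in the wounded total libraries. Sprr1b counts per Sprr2d count were 68.8 to 106 and 20.1 to 25 in the same groups.

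**Figure D3:**
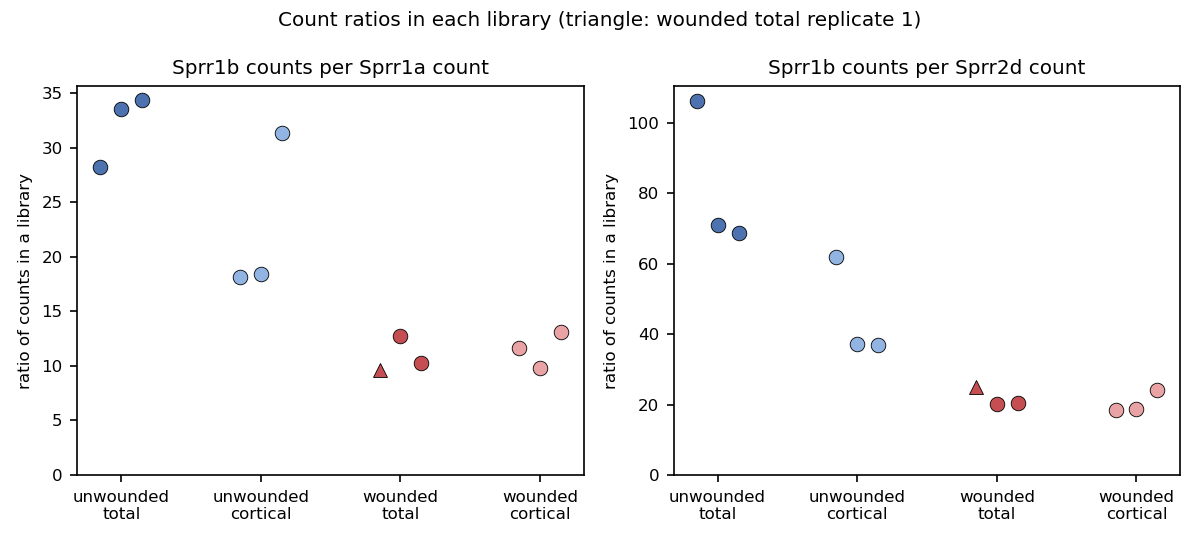
Sprr1b counts per Sprr1a count (left) and per Sprr2d count (right) in each library, by group, with the triangle marking wounded total replicate 1. In both panels the 6 wounded libraries lie below the 6 unwounded ones, at 9.66 to 13.1 in the left panel and 18.4 to 25 in the right.

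Ivl encodes involucrin, an early scaffold of the envelope. Unwounded total libraries stood at 12.3, 9.09 and 12.5 CPM and wounded total libraries at 26.2, 14.1 and 15.4 CPM. The groups did not overlap, but wounded total replicate 1 was 1.78 times the mean of the other 2, which was 14.8 CPM. The difference was 1.64-fold (log2 0.72, SE 0.23, adjusted p = 0.0465 by edgeR). Without wounded total replicate 1 it was log2 0.38 with adjusted p = 0.2 by edgeR. Leaving out any 1 of 10 of the 12 libraries (all but wounded total replicates 2 and 3) ended the call, at adjusted p from 0.0525 to 0.2, so Ivl stood at the threshold.

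Lor encodes loricrin, the bulk precursor of the mature envelope. Unwounded total libraries were close together at 6.19, 5.48 and 5.77 CPM, and wounded total libraries were spread at 1.78, 7.92 and 7.05 CPM. Wounded total replicate 1 was the lowest and the other 2 lay above all unwounded libraries. The difference did not pass the test (log2 -0.06, SE 0.47, adjusted p = 0.954 by edgeR).

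The transglutaminases, which join the precursors, did not pass the test in any comparison. Tgm1, the membrane-bound form, ranged from 10.6 to 23.3 CPM over all 12 libraries. Its unwounded total mean was 14.5 ± 3.39 CPM and its wounded total mean 16.6 ± 2.08 CPM (log2 0.19, SE 0.22, adjusted p = 0.641 by edgeR). Tgm3, the soluble epidermal form, ranged from 0 to 72 counts. It had 0 counts in wounded total replicate 1, where a count of 0 allows up to 0.178 CPM by counting error alone. Replicates 2 and 3 of that group had 36 and 38 counts, and their mean level would give 36.7 counts in replicate 1. Values were 1.23, 1.98 and 0.943 CPM in unwounded total and 2.02 and 2.33 CPM in wounded total replicates 2 and 3. The difference for Tgm3 did not pass and had a wide error (log2 0.07, SE 0.9, adjusted p = 0.971 by edgeR).

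Alox12b and Aloxe3 encode lipoxygenases that act in sequence on the linoleate ester of epidermal ceramides. Although they are neighbours, their values differed in pattern. Alox12b stood at 1.27, 2.26 and 1.24 CPM in unwounded total and 2.31, 4.44 and 7.72 CPM in wounded total libraries. The groups did not overlap, but the lowest wounded library, replicate 1, lay just above the highest unwounded one. The difference was 3.03-fold (log2 1.6, SE 0.52, adjusted p = 0.0462 by edgeR). Leaving out 1 library ended the call in 9 of 12 cases, with log2 from 1.08 to 1.92 and adjusted p from 0.0507 to 0.293. These were any unwounded total library, unwounded cortical replicates 1 and 3, wounded total replicates 2 and 3, and wounded cortical replicates 1 and 3. Without wounded total replicate 1 the value was log2 1.93 with adjusted p = 0.00496 by edgeR. Aloxe3 stood at 4.68 ± 1.16 and 4.67 ± 0.706 CPM in the 2 groups (log2 0, SE 0.3, adjusted p = 0.998 by edgeR).

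Sbsn supplied most of the counts of the 10 genes. Its unwounded total libraries stood at 1111, 1097 and 1015 CPM and its wounded total libraries at 1213, 1569.8 and 1742 CPM. All wounded libraries lay above all unwounded ones, with replicate 1 the lowest of the wounded. The difference was 1.4-fold (log2 0.49, SE 0.12, adjusted p = 0.0117 by edgeR), and it was log2 0.37 with adjusted p = 0.0539 without wounded total replicate 3. Sbsn made up 81.1% to 86.1% of the CPM of the 10 genes in each library, a share that is not corrected for gene length. Their sum was 1322 ± 67.8 CPM in unwounded total and 1796 ± 282 CPM in wounded total libraries, so this sum mainly tracks Sbsn. Of the Sbsn transcript windows 6.96% are shared with Tmem147os, an overlapping gene on the same strand with 36 to 233 counts a library against 8995 to 29605 for Sbsn.

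**Figure D4:**
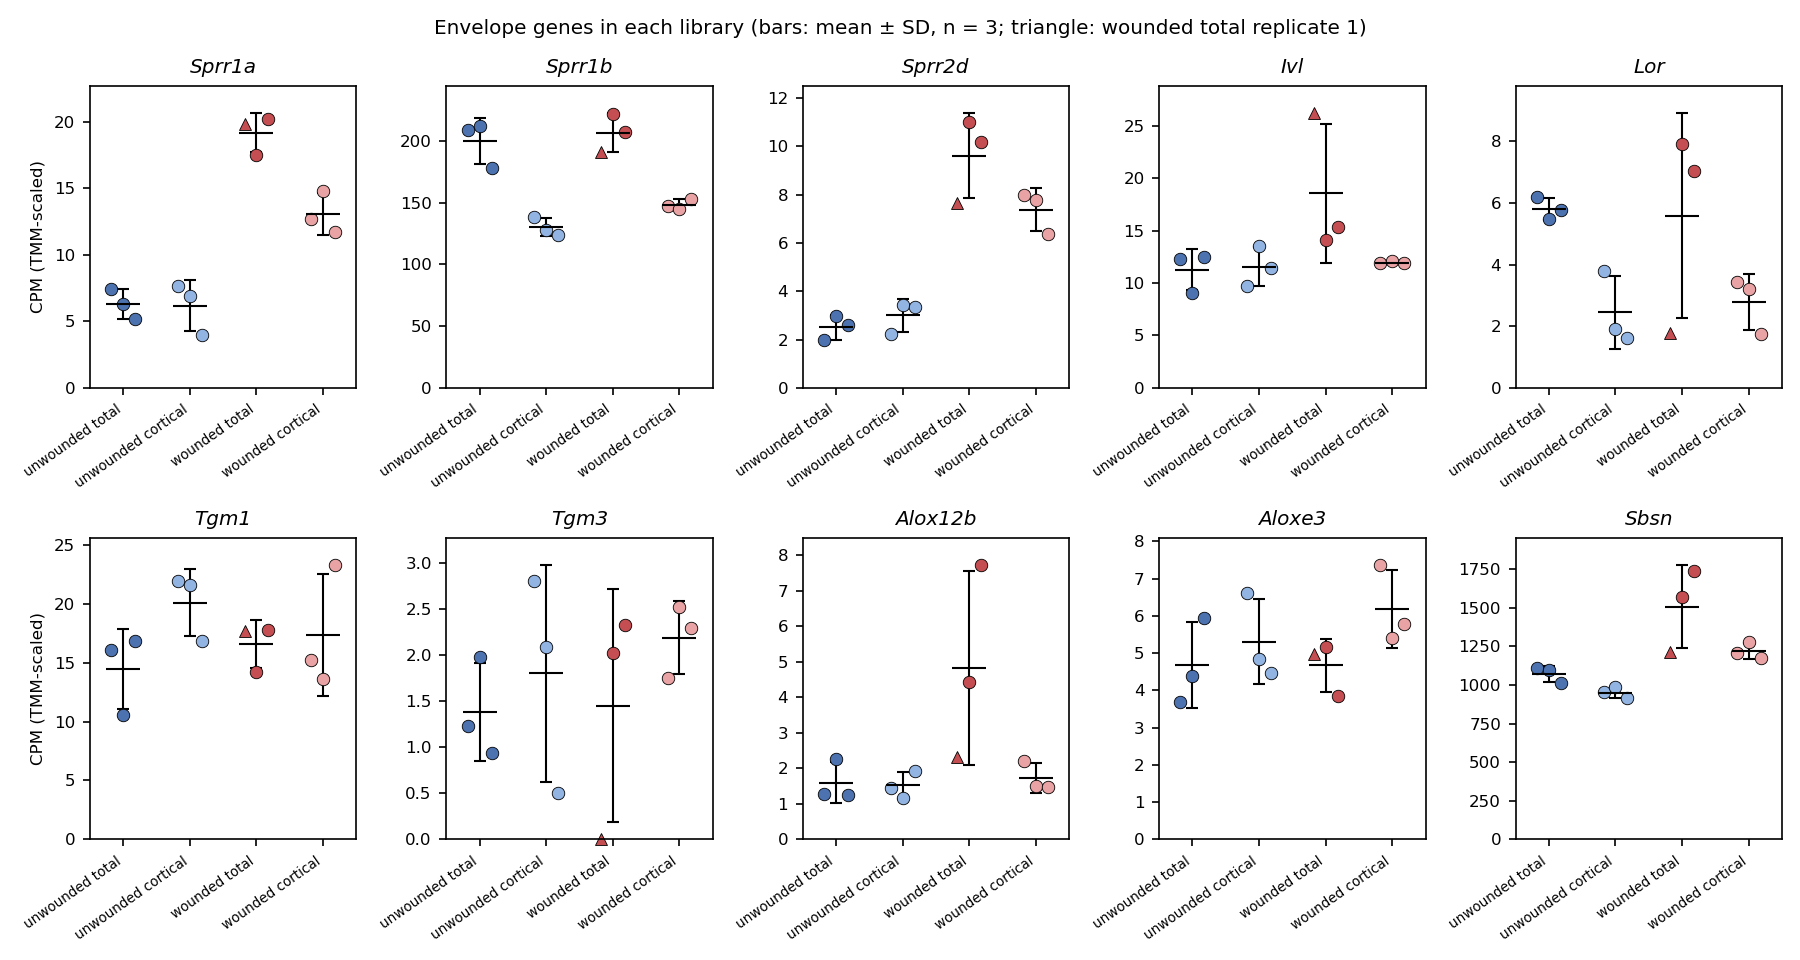
CPM of each of the 10 genes in the 12 libraries by group on linear axes from 0, with bars for the mean and SD of 3 libraries and a triangle for wounded total replicate 1. Sprr1a and Sprr2d are higher in the wounded libraries of both fractions, Sprr1b is lower in the cortical libraries, and the triangle departs from its group in Ivl (26.2 CPM), Lor (1.78 CPM) and Tgm3 (0 CPM).

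In the cortical libraries 2 of the 10 genes rose on wounding, Sprr1a and Sprr2d, and 0 fell, where 2.48% of all genes passed, 1.6% as higher and 0.884% as lower (9.07% without wounded total replicate 1). With library size scaling all genes split into 108 higher and 91 lower, where TMM gave 217 and 120. The median log2 difference of the 10 was 0.21, against 0.02 for all genes. Sprr1a stood at 7.62, 6.94 and 3.97 CPM in unwounded cortical and 12.7, 14.8 and 11.7 CPM in wounded cortical libraries. The groups were apart, and the difference was 2.08-fold (log2 1.05, SE 0.24, adjusted p = 0.0247 by edgeR). Sprr2d stood at 2.23, 3.43 and 3.36 CPM and at 7.99, 7.8 and 6.37 CPM. These groups were apart too, by 2.49-fold (log2 1.32, SE 0.3, adjusted p = 0.0261 by edgeR).

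Both calls ended when certain single libraries were left out, although the differences kept their sign. With each of the 12 libraries left out in turn, log2 ran from 0.84 to 1.25 for Sprr1a and from 1.12 to 1.43 for Sprr2d. The count of all genes called fell as well, from 337 to 108 without wounded cortical replicate 1. The call of Sprr1a ended without unwounded cortical replicate 2 or 3 or any 1 wounded cortical library, with log2 from 0.84 to 1.13 and adjusted p from 0.0593 to 0.107 by edgeR, and with library size scaling (log2 1.01, adjusted p = 0.0658). That of Sprr2d ended without any 1 of the 6 cortical libraries, with log2 from 1.12 to 1.43 and adjusted p from 0.0565 to 0.125. Sprr1b and Sbsn were higher in all 3 wounded cortical than in all 3 unwounded cortical libraries without passing the test. How many of all genes have groups apart was not counted, so this separation is only a description. Sprr1b stood at 138, 128 and 124 against 147, 145 and 153 CPM (log2 0.19, SE 0.1, adjusted p = 0.356 by edgeR). Sbsn stood at 952, 986 and 915 against 1206, 1278 and 1175 CPM (log2 0.36, SE 0.12, adjusted p = 0.124 by edgeR). Its adjusted p was 0.00473 at the same log2 difference once wounded total replicate 1 was left out of the shared fit, with 3 of the 10 genes then passing.

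Ivl and Alox12b, higher in wounded total libraries, had cortical values close to the unwounded ones. Ivl stood at 9.77, 13.5 and 11.4 CPM in unwounded and 11.9, 12.1 and 11.9 CPM in wounded cortical libraries (log2 0.05, SE 0.24, adjusted p = 0.946 by edgeR). Alox12b stood at 1.45, 1.17 and 1.93 CPM and at 2.2, 1.51 and 1.47 CPM (log2 0.2, SE 0.53, adjusted p = 0.901 by edgeR). The remaining 4 genes, Lor, Tgm1, Tgm3 and Aloxe3, had log2 differences from -0.21 to 0.25 and overlapping groups.

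Whether wounding acted differently in the 2 fractions was tested with the interaction, which subtracts the unwounded from the wounded log2 ratio of cortical to total RNA. By edgeR, 0 of the 10 genes passed, 0 had an unadjusted p under 0.05, and DESeq2 also called 0, where 0.125% of all genes passed in edgeR, 0.0221% as higher and 0.103% as lower. Without wounded total replicate 1, 2.93% of all genes passed, 1.06% as higher and 1.88% as lower, and 0 of the 10. The largest values were those of Alox12b (log2 -1.4, SE 0.74, adjusted p = 0.612 by edgeR) and Ivl (log2 -0.66, SE 0.33, adjusted p = 0.586). For Sprr1a it was log2 -0.54 (SE 0.33, adjusted p = 0.678 by edgeR) and for Sprr2d log2 -0.62 (SE 0.42, adjusted p = 0.722). A call in 1 fraction and none in the other is therefore not shown to be a difference between the fractions for any of the 10 genes.

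Setting cortical against total RNA, 1 of the 10 genes passed in either state, and it was Sprr1b both times, as lower in the cortical fraction. In unwounded cells 14.2% of all genes passed, 6.62% as higher and 7.59% as lower (22.4% without wounded total replicate 1). In wounded cells 15.7% passed, 7.62% as higher and 8.03% as lower (24.7% without it). Scaled by library size alone, all genes split into 1582 higher and 469 lower in unwounded cells, where TMM gave 898 and 1030, and into 2203 and 520 in wounded cells, where TMM gave 1034 and 1090. The median log2 difference of the 10 genes was 0.01 in unwounded and -0.43 in wounded cells, against 0 and 0.04 for all genes. The wounding and fraction comparisons share libraries and are not independent of each other.

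Sprr1b in unwounded cells stood at 209, 212 and 178 CPM in total and 138, 128 and 124 CPM in cortical libraries. Every cortical library lay below every total library, by 1.53-fold (log2 -0.62, SE 0.1, adjusted p = 0.000961 by edgeR). In wounded cells the values were 191, 222 and 207 CPM in total and 147, 145 and 153 CPM in cortical libraries. The groups were again apart, by 1.39-fold (log2 -0.48, SE 0.1, adjusted p = 0.005 by edgeR), and the interaction was log2 0.14 (SE 0.14, adjusted p = 0.838 by edgeR).

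The Sprr1b call depends on how short genes are treated. Sprr1b has 830 bases of merged exons, and with the trend of counts on gene length removed within each library its difference was log2 -0.31 (adjusted p = 0.119 by edgeR) in unwounded and -0.25 (adjusted p = 0.213) in wounded cells. Scaling by library size alone moved the median of all genes to 0.19 in unwounded and 0.252 in wounded cells and gave Sprr1b -0.43 (adjusted p = 0.00812 by edgeR) and -0.26 (adjusted p = 0.0758).

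Lor showed the lowest cortical-to-total value in unwounded cells, with cortical libraries at 3.79, 1.92 and 1.63 CPM and total libraries at 6.19, 5.48 and 5.77 CPM. The groups were apart, and the difference did not pass (log2 -1.2, SE 0.49, adjusted p = 0.116 by edgeR). Without wounded total replicate 1, which is in neither group but enters the shared estimate of the spread, it was log2 -1.19 with adjusted p = 0.0155 by edgeR. In wounded cells cortical libraries stood at 3.42, 3.21 and 1.76 CPM against 1.78, 7.92 and 7.05 CPM in total. The groups overlapped through replicate 1, with log2 -1 (SE 0.48, adjusted p = 0.181 by edgeR), and without it the value was log2 -1.42 with adjusted p = 0.00678.

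In wounded cells the cortical libraries of Sprr1a, Ivl and Alox12b lay below the total ones without overlap, and none of these genes passed the test. The share of all genes with groups apart was not counted, so this separation is only a description. Sprr1a had 12.7, 14.8 and 11.7 against 19.8, 17.5 and 20.2 CPM (log2 -0.56, SE 0.23, adjusted p = 0.113 by edgeR). Ivl had log2 -0.64 (SE 0.23, adjusted p = 0.074 by edgeR). Alox12b had log2 -1.47 (SE 0.52, adjusted p = 0.0637 by edgeR), and -1.81 with adjusted p = 0.00775 without wounded total replicate 1. Sbsn had log2 -0.31 (SE 0.12, adjusted p = 0.0981 by edgeR), and -0.44 with adjusted p = 0.000394 without that library. In that fit 4 of the 10 genes passed, where 24.7% of all genes passed and 12.6% passed as lower.

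The enzymes Tgm1 and Aloxe3 lay on the other side of 0. Tgm1 in unwounded cells had 16.1, 10.6 and 16.8 CPM in total and 21.9, 21.6 and 16.8 CPM in cortical libraries, which met at 16.8 CPM (log2 0.47, SE 0.22, adjusted p = 0.19 by edgeR). Aloxe3 in wounded cells had 4.98, 5.17 and 3.86 CPM in total and 7.37, 5.41 and 5.78 CPM in cortical libraries, with the groups apart (log2 0.41, SE 0.3, adjusted p = 0.409 by edgeR). Neither passed the test.

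**Figure D5:**
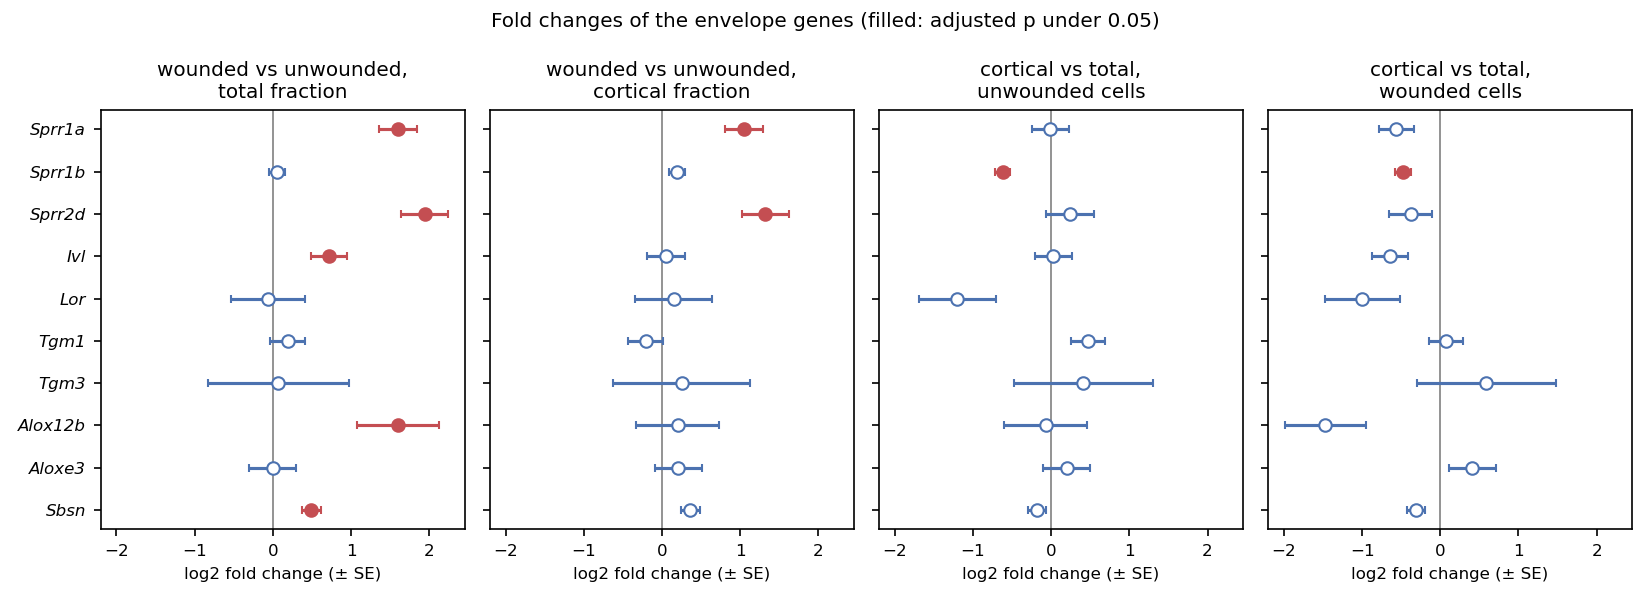
Log2 fold change of each of the 10 genes in 4 comparisons, 1 panel each, with points at the fitted value, bars of 1 standard error, and filled red points for those past the adjusted p threshold. Wounded against unwounded total RNA has 5 red points, all above 0, the cortical libraries have 2, and each fraction comparison has 1, Sprr1b, below 0.

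The other genes of the pathway were counted from lists that exclude the 10. Their counts in total RNA on wounding are to be read beside the 8.39% of all genes that passed as higher and the 7.2% that passed as lower, and their medians beside the all-gene median of -0.03. In cortical RNA on wounding these shares were 1.6% higher and 0.884% lower. For cortical against total RNA they were 6.62% higher and 7.59% lower in unwounded cells, and 7.62% and 8.03% in wounded cells. Of 48 further envelope precursors 36 had a count and 19 were tested. In total RNA 4 rose on wounding and 0 fell, with a median log2 difference of 0.39. They were Evpl (envoplakin, a desmosome-associated envelope scaffold), Dmkn (dermokine, a secreted protein), Sprr2k and Sprr2a1. Dmkn and Sprr2k are named for the count, after their values were seen. Scaled by library size alone, 1 precursor rose. Evpl and Dmkn rose in both fractions, although RLE and library size scaling each left 1 precursor called in the cortical fraction, and Evpl was also higher in cortical than in total RNA in both states. Evpl stood at 107 ± 14.9 CPM in unwounded total, 176 ± 6.13 in unwounded cortical, 141 ± 8.14 in wounded total and 291 ± 25.8 CPM in wounded cortical libraries. Its cortical-to-total log2 difference was 0.72 (SE 0.11, adjusted p = 0.000702 by edgeR) in unwounded and 1.05 (SE 0.11, adjusted p = 6.58e-05 by edgeR) in wounded cells, the opposite direction to Sprr1b. With the length trend removed Sprr1b did not pass, and Evpl and the list counts were not examined in that setting.

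Lower cortical values were called for 3 of the 19 tested precursors in unwounded and 5 in wounded cells, against 1 higher, Evpl, in each. Of all genes, 7.59% and 8.03% passed as lower. Without wounded total replicate 1 the counts were 5 lower and 1 higher in unwounded and 6 lower and 2 higher in wounded cells, of 20 tested. All-gene shares there were 12.3% lower and 10.1% higher in unwounded, and 12.6% and 12.1% in wounded cells. Krtdap, a small secreted protein of differentiating keratinocytes, stood at 3090.2 ± 1167 CPM in wounded total and 1564 ± 24.1 CPM in wounded cortical libraries (log2 -0.98, SE 0.21, adjusted p = 0.00456 by edgeR). Sprr2j-ps was lower in cortical RNA in both states, by log2 -0.75 (SE 0.15, adjusted p = 0.00381 by edgeR) and -0.48 (SE 0.15, adjusted p = 0.0415 by edgeR). It is a pseudogene by its symbol and is included in the precursor counts. Sequence that it shares with other Sprr2 genes was not examined. Scaled by library size alone, 2 precursors were lower in each state. Of the 13 other Sprr genes 8 were tested, and 2 rose in wounded total RNA, Sprr2k (log2 0.54, SE 0.16, adjusted p = 0.0303 by edgeR) and Sprr2a1 (log2 0.7, SE 0.21, adjusted p = 0.0349 by edgeR). Both differences were smaller in log2 units than those of Sprr1a and Sprr2d, and the near-identical copies Sprr2a1, Sprr2a2 and Sprr2a3 may share reads. Of 21 late envelope (Lce) genes, 7 had no count in any library and 3 could be tested, and 0 of the 3 passed in the wounding comparisons.

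Of 20 tested crosslinking and lipid barrier enzymes, 3 rose in wounded total RNA and 0 fell, with a median of 0.16. They included Elovl4, which extends very long fatty acids (log2 1.02, SE 0.33, adjusted p = 0.0415 by edgeR), and Smpd1, acid sphingomyelinase (log2 0.61, SE 0.15, adjusted p = 0.0111). Ugcg, which makes glucosylceramide, passed as higher in cortical RNA of unwounded cells (log2 0.69, SE 0.2, adjusted p = 0.0271 by edgeR). Scaled by library size alone, 1 of these enzymes rose in wounded total RNA, and without wounded total replicate 1, 4 rose and 2 fell of 21 tested.

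Proteases and inhibitors of desquamation, the shedding of cornified cells, had 9 of 18 tested genes higher in wounded total RNA and 0 lower, with a median of 0.53. Csta1, a cysteine protease inhibitor, stood at 9.97 ± 3.1 CPM in unwounded and 22.7 ± 9.66 CPM in wounded total libraries (log2 1.19, SE 0.33, adjusted p = 0.0211 by edgeR). The kallikrein protease Klk14 stood at 5.21 ± 0.31 and 10.1 ± 1.53 CPM (log2 0.95, SE 0.27, adjusted p = 0.0222 by edgeR). Prss8, the membrane protease prostasin, stood at 12.8 ± 2.1 and 23.4 ± 8.99 CPM (log2 0.87, SE 0.22, adjusted p = 0.0141 by edgeR). Cstb, another cysteine protease inhibitor, rose by log2 0.55 (SE 0.15, adjusted p = 0.0201 by edgeR) and was lower in cortical RNA in unwounded (log2 -0.71) and wounded cells (log2 -1.04). Unwounded and wounded total libraries overlapped for Csta1 (highest unwounded 13.5, lowest wounded 11.6 CPM) and Cstb (505 and 471 CPM). Those of Klk14 and Prss8 did not overlap. In cortical RNA 0 of the 18 passed on wounding in edgeR, while DESeq2 called 5 higher and 1 lower and edgeR called 5 higher without wounded total replicate 1.

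Basal keratinocyte markers also rose on wounding. Of 12 basal markers 7 rose and 0 fell in total RNA, with a median of 0.52, and 4 rose in cortical RNA. Krt14 stood at 4489 ± 292 CPM in unwounded and 9239 ± 1984 CPM in wounded total libraries (log2 1.04, SE 0.13, adjusted p = 7.85e-05 by edgeR). Lamb3, a chain of the basement membrane protein laminin 332, had log2 1.27 (SE 0.12, adjusted p = 6.14e-06 by edgeR). Basal markers were higher in cortical than total RNA, unlike Sprr1b in the reported fit. Of 12, 9 were called higher in unwounded and 3 in wounded cells, and 0 lower, where 6.62% and 7.62% of all genes passed as higher. The 3 became 10 with scaling by library size alone and 8 without wounded total replicate 1. These counts were not repeated with the length trend removed, the setting in which Sprr1b did not pass. The part of these marker levels in the envelope results was not tested.

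Of 17 other suprabasal markers 6 rose and 1 fell in wounded total RNA, with a median of 0.45. The counts were 8 and 0 with RLE scaling, and 4 and 1 with scaling by library size alone. Fabp5, a fatty acid binding protein, rose by log2 0.48 (SE 0.12, adjusted p = 0.0121 by edgeR) and Ly6d, a surface protein, by log2 0.45 (SE 0.14, adjusted p = 0.0368 by edgeR). The total libraries of Ly6d overlapped, with the highest unwounded at 4298 and the lowest wounded at 3965 CPM, and those of Fabp5 did not. The gene that fell in the reported fit, but did not pass with RLE scaling, was Sfn, the epithelial 14-3-3 protein stratifin (log2 -0.31, SE 0.1, adjusted p = 0.0356 by edgeR). All 3 were lower in cortical than in total RNA in both states. The list as a whole split, with 4 markers lower and 3 higher in cortical RNA of unwounded cells (median 0.11) and 5 lower and 2 higher in wounded cells (median -0.19). With library size scaling the unwounded split was 2 lower and 4 higher.

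Among 20 tested regulators of differentiation 5 rose and 2 fell in wounded total RNA, while the median was below 0 at -0.19. The counts were 3 and 3 with scaling by library size alone, and 4 and 5 without wounded total replicate 1. Of those that rose, the rule names Maf, a transcription factor of differentiating keratinocytes, from 16.9 ± 0.821 to 42.8 ± 7.3 CPM (log2 1.34, SE 0.15, adjusted p = 3.03e-05 by edgeR), and Vdr, the vitamin D receptor, from 117 ± 5.35 to 225 ± 2.5 CPM (log2 0.94, SE 0.09, adjusted p = 8.77e-06 by edgeR). The 2 that fell were Grhl3, a grainyhead-like factor needed for barrier formation, from 10.7 ± 1.87 to 4.53 ± 2.22 CPM (log2 -1.23, SE 0.31, adjusted p = 0.0133 by edgeR), and Ovol1, a repressor expressed in differentiating layers (log2 -0.69, SE 0.17, adjusted p = 0.0117 by edgeR).

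Genes with the most similar profiles were found by the root mean square difference of mean-centred log2 CPM over the 12 libraries, among 9318 tested genes averaging 100 counts or more. Nearest to Sprr1b were Ly6c1 at 0.0587, Sod2 at 0.0765 and Grpel1 at 0.0773, against the spread of Sprr1b about its own mean of 0.293. Nearest to Sbsn were Glmp at 0.0699, Clic1 at 0.0702 and Lypd3 at 0.0711, against 0.268. Sprr1a was matched less closely, by Cd68 at 0.277 and by Klk14 and Ramp3 at 0.306, against 0.747. Sprr2d was matched by Selenbp1 at 0.282, Dhrs7 at 0.295 and Chit1 at 0.298, against 0.84.

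Among the 10 genes themselves, Sprr1a and Sprr2d differed by 0.43 on this measure, against own spreads of 0.747 and 0.84, while the 2 Sprr1 genes differed by 0.684. The smallest difference, 0.246, was that of Sprr1b and Sbsn, but it was close to their own spreads of 0.293 and 0.268. The measure is not scaled to the spread, so this pair is not shown to share a profile. Near to Ivl were Appl2 at 0.151 and Pgap3 at 0.202, and nearest to Alox12b were 1810024B03Rik at 0.284, Higd1a at 0.287 and Pin4 at 0.306. For Tgm1 the nearest was Afdn at 0.173, for Aloxe3 Plekhg6 at 0.165, for Lor Ndufb2 at 0.393 and for Tgm3 C030006K11Rik at 0.659. The last rests on the low counts of Tgm3.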

How the data were processed

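The data were 12 poly-T selected, randomly primed, non-directional messenger RNA libraries, per the labels' protocols. The authors deposited raw counts of fragments per gene, whole numbers summing to 8980013 to 23457548 per library. They also deposited FPKM values, in which each count is scaled by the gene's length and by a library factor that was 0.825 to 1.1 times the summed counts. CASAVA, HISAT2 and mm10 are named in the submitters' processing notes, and the counting tool and annotation are not given in the sources used here. Of the 54532 gene identifiers, 54409 are in GENCODE M21, and coordinates are those of the deposited table.

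Tests used edgeR 4.0.16 in R 4.3.3 on the counts: filterByExpr, TMM factors (0.831 to 1.1), 1 mean per group over all 12 libraries, and quasi-likelihood F tests for 5 contrasts, adjusted by Benjamini-Hochberg over 13571 genes. SE is the absolute log2 fold change divided by the square root of F. CPM values are TMM-scaled, and floors cover counting error only, for 3 counts. Alternatives were RLE and library size scaling, genes left unfiltered or held to 50 counts on average, DESeq2 1.42.0, voom with quality weights (limma 3.58.1), only the groups compared, a replicate block, a loess length trend (span 0.5) removed with and without the block, limma on log2 of FPKM plus 1 or 0.1, and leaving out each library. The list counts under other scalings, with DESeq2 and without wounded total replicate 1 were added after seeing the data. The scripts were tested on 1 set of simulated counts with 200 changed genes. There edgeR recovered 51% of genes changed by log2 1 and 80% of those changed by log2 2, with 2.24% of its calls false. DESeq2 recovered 56% and 83%, with 14.7% of its calls false. Shared sequence was counted as 50-base windows of GENCODE M21 transcripts. Promoters are RefSeq's for GRCm38.p6. Figures used python 3.11.15 and matplotlib 3.10.9.

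The 10 genes and the lists were chosen with earlier results of these data known. Named genes are all 10, up to 4 called genes with the largest change from each of 6 other lists, and the 3 genes most like each of the 10, of which some are not reported here. All per-sample columns were used. The libraries all differed by more than sampling noise.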

Additional observations from a re-analysis of the deposited data

How the results depend on the processing

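Sprr1a and Sprr2d passed as higher in wounded total RNA under all 24 alternatives, and 0 of the tested values of the 10 genes reversed a call. The number of the 10 genes called (5 in wounded against unwounded total, 2 in wounded against unwounded cortical, 1 in each fraction comparison) changed as follows. With library size scaling it was 3, 1 (Sprr1a lost) and, for wounded cortical against wounded total, 0, and the median log2 difference of all genes became -0.105 in wounded against unwounded total, 0.19 in unwounded cortical against total and 0.252 in wounded cortical against total. DESeq2 called 4 in wounded cortical against wounded total and voom with quality weights 6, while voom called 3 in unwounded cortical against unwounded total. In wounded against unwounded cortical, voom and the fit of only the groups compared each called 3, with Sbsn added. With only the groups compared in the fit, 2 were called in wounded against unwounded total and 2 in unwounded cortical against unwounded total. With the length trend removed, 0 were called in unwounded cortical against unwounded total, also with the block. In wounded cells the count stayed at 1 because Sbsn passed (log2 -0.36) in place of Sprr1b. The cause of these shifts was not tested. Over all genes the counts called ran, across the alternatives, from 949 to 3708 for unwounded cortical against total (1928 in the reported fit), 970 to 4441 for wounded cortical against total (2124), 1128 to 5206 for wounded against unwounded total (2116), 108 to 1423 for the cortical libraries (337) and 4 to 855 for the interaction (17).

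Leaving out 1 library gave 3 to 4 genes for wounded against unwounded total, 0 to 3 for the cortical libraries, 1 to 2 for unwounded cortical against total, 1 to 4 for wounded cortical against total, and 0 for the interaction. The highest counts in the cortical and both fraction comparisons (3, 2 and 4) came without wounded total replicate 1. The labels do not say whether same-numbered libraries of different groups came from 1 culture, and the reported fit used no pairing. Deviations of same-numbered libraries correlated at -0.0532 to 0.273. The highest values were those of unwounded against wounded total, 0.19 for replicate 1 and 0.273 for replicate 2. Of 12 libraries, 6 correlated best with their own number, so a pairing is neither shown nor excluded. With the replicate block 3 genes were called in wounded against unwounded total, with or without the length trend removed, Ivl (adjusted p = 0.0618 by edgeR) and Alox12b (0.0826) not passing with the block alone, and the other counts were the same with the block alone. Depth limits Tgm3, Alox12b and Lor, which averaged 32.1, 42.7 and 77.4 counts a library.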
